A study of Mus musculus with 6 samples.

Results

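A set of 10 imprinted genes of the growth network was read in cultured mouse muscle cells labelled as wild type or as a knockout of eIF5A, a translation factor: H19, Meg3, Rian, Mirg, Dlk1, Peg3, Mest, Plagl1, Ndn and Grb10. They were chosen by gene name, without reference to a threshold but with earlier results of these data known. All 10 were found among the 54532 genes of the table, each with 1 row. All 10 passed the filter on low counts and were among the 14679 genes tested. Bulk RNA-seq had been run on 6 libraries of primary myoblasts, the muscle progenitors that grow out of dissociated muscle, with 3 libraries labelled WT and 3 labelled eIF5A-KO. The cells came from hind-limb muscle of mice 3 weeks of age and were collected at day 2 of proliferation in DMEM with 10% serum and FGF, given as 10 ug/ml. The genotype given for the knockout was Pax7 CreERT2/+; eIF5A f/f with tamoxifen. The level of the Eif5a transcript, given with the depths, was not lower in the libraries of the knockout label. The study reports RT-qPCR, immunostaining and a western blot of eIF5A in satellite cells, the muscle stem cells, rather than in these libraries. The term eIF5A-KO is used throughout as the label of 3 libraries, and every direction is one between labelled libraries. The control mice were described in one place as Pax7 CreERT2/+ and in another as Pax7+/+; eIF5A f/f, also with tamoxifen. Because Cre was driven from Pax7, a gene of satellite cells and their progeny, any other cell in such a culture kept its eIF5A gene in both groups. The study describes the RNA-seq as triplicate experiments. Whether the 3 libraries of a group came from separate animals was not stated. The p-values here therefore measure the spread between these libraries, which may be technical in part.

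An imprinted gene is transcribed mainly from the copy inherited from 1 parent, and the choice is kept by DNA methylation that is set in the germ line. Many imprinted genes act on fetal and early postnatal growth, and a set of them is co-expressed in growing tissues and declines as these mature. In skeletal muscle, satellite cells and myoblasts are among the cells that keep expressing several of them after birth. H19 is a maternally expressed long non-coding RNA next to the growth factor gene Igf2. Meg3, Rian and Mirg are maternally expressed non-coding RNAs of the Dlk1-Dio3 domain, and Dlk1, the transmembrane protein that gives the domain its name and that is linked to myogenesis, is expressed there from the paternal copy. Peg3 and Plagl1 encode zinc finger proteins, Mest a protein of the hydrolase fold, Ndn the MAGE family protein necdin, and all of these are paternally expressed. Grb10, an adaptor that restrains insulin and IGF receptor signalling, is maternally expressed in most tissues. The reads were not assigned to parental copies, so no value below speaks of the imprint itself.

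Of the 10 genes, 4 lie in 1 domain of chromosome 12, and several are hosts of small RNAs. In GRCm38 coordinates Dlk1 is at chr12:109452823-109463336, Meg3 at chr12:109541001-109571726, Rian at chr12:109603940-109661716 and Mirg at chr12:109729764-109749460, all on the plus strand and spanning 296.6 kb. According to RefSeq (GRCm38.p6), 39 mature miRNAs lie within 5 of the 10 genes: 26 in Mirg, 6 in Rian, 3 in Meg3, 2 in H19 and 2 in Mest. The mature strands inside H19, Meg3 and Mest are shown because they identify what the 3 host RNAs carry, together with the only pair among the 39 that shares a seed, in Mirg. The seed, bases 2 to 8, is in capitals.
miR-675-3p: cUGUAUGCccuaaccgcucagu
miR-675-5p: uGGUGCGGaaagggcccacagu
miR-1906: uGCAGCAGccugaggcagggcu
miR-770-5p: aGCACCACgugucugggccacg
miR-770-3p: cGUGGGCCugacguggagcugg
miR-335-5p: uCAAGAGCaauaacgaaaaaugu
miR-335-3p: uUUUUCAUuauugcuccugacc
miR-453: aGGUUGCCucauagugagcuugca
miR-496a-5p: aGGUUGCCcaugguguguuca
The miR-675 strands lie in an exon of H19 at chr7:142577078-142577099 and chr7:142577112-142577133 on the minus strand. The miR-770 strands are in an exon of Meg3 at chr12:109563710-109563731 and chr12:109563744-109563765, and miR-1906 in an exon at chr12:109544588-109544609. The miR-335 strands are in an intron of Mest at chr6:30741314-30741336 and chr6:30741354-30741375. The 2 miRNAs with the seed GGUUGCC are in introns of Mirg at chr12:109735669-109735692 and chr12:109739132-109739152. Levels of miRNAs were not measured.

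Promoter windows of RefSeq (GRCm38.p6), 250 bases before to 50 bases after a start, were matched for 9 of the 10 genes, with 13 windows in all. The hexamer TGCCGC, which ZFP57 binds when methylated, was searched on both strands. It occurred in windows of Meg3, Mest, Plagl1 and Grb10, and in 11.6% of all 32851 windows. The window at the annotated start of Meg3, chr12:109540746-109541045 on the plus strand, is shown because Meg3 was the gene whose groups did not overlap; it had a GC content of 53.7%, against a median of 52.7% over all windows, and held 13 CG dinucleotides, against a median of 7. The capitals mark its single match, which reads as the reverse complement of the hexamer.
Meg3 promoter: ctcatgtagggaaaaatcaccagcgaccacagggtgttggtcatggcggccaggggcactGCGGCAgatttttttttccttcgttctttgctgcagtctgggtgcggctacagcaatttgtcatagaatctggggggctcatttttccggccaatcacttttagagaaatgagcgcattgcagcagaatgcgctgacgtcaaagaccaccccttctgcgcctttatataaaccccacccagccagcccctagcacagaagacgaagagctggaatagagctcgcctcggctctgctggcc
The E-box CAGCTG, a motif of MyoD, was absent from this window and present in 16.3% of all windows. Among the windows of the 10 genes the highest GC content, 80.0% with 45 CG dinucleotides, was in a Grb10 window. Such matches describe letters in a window and are not evidence of binding.

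The counts summed to between 16281216 and 17734551 per library, and the 10 genes together took between 0.0635% and 0.15% of them. The mitochondrial share of the counts was highest in WT replicate 1, at 5.75%, and elsewhere 2.11% to 3.5%. Eif5a itself, the targeted gene, had 1602.6, 986.3 and 1238.2 CPM in WT and 1364.4, 1459.2 and 1059.3 CPM in the libraries labelled eIF5A-KO, each of which lay within the WT range. Its log2 difference was 0.02 (interval -0.51 to 0.55 at 95% confidence, edgeR adjusted p = 0.993), so a lower transcript level was not seen. The counts are per gene, so a deleted part of the gene was not counted apart. The defining myoblast markers were present, with Myod1 between 195.6 and 550 CPM (counts scaled to library size), and markers of other cells were present too. Fibroblast markers summed to between 1614 and 2337 CPM, endothelial markers to between 711.5 and 2129.6 CPM and Schwann cell markers to between 100.3 and 206.6 CPM, with no marker of the 7 lists at 0 in any library. The sums did not overlap between the groups for 2 of the lists. Mural cell markers summed to 175.9 to 228.6 CPM in WT and 241.8 to 313.1 CPM in eIF5A-KO, and Schwann cell markers to 100.3 to 161.1 CPM in WT and 171.9 to 206.6 CPM in eIF5A-KO. Of the 5 mural markers, 3 were higher at an unadjusted p under 0.05, and the smooth muscle myosin gene Myh11 was 1 of only 3 genes of the whole comparison with an adjusted p under 0.05 (log2 fold change 1.52, SE 0.17, edgeR adjusted p = 0.0486). This call was lost wherever 0 genes passed, which was with DESeq2 size factors, library size alone, at least 10 counts in every library, limma-voom, limma on FPKM, or any library but WT replicate 1 left out.

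Levels per length, as FPKM (reads divided by gene length and by library size), differed widely among the 10 genes. H19 had the highest mean over the 6 libraries, 171 FPKM, with a range of 52.8 to 302.5. Grb10 at 26.4 and Ndn at 24.2 FPKM followed, each higher than the other in 3 of 6 libraries. The ranges of H19 and Grb10 did not overlap, nor did those of Ndn and Dlk1. Dlk1 at 7.12, Peg3 at 5.09, Plagl1 at 3.3, Mest at 2.97 and Rian at 2.89 FPKM formed a run whose neighbouring ranges overlapped. Meg3 at 0.826 and Mirg at 0.339 FPKM were the 2 lowest, and neither overlapped its neighbour above.

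The comparison of libraries labelled eIF5A-KO with WT asked which of these genes differed between the groups. H19, Meg3 and Peg3 had the largest differences, with the mean CPM of the libraries labelled eIF5A-KO at 0.474, 0.586 and 0.531 of the WT mean. No gene of the 10 had an adjusted p under 0.05 (edgeR quasi-likelihood F test, Benjamini-Hochberg over all tested genes), where 3 of 14679 genes, 0.0204%, did. DESeq2, limma-voom and limma on FPKM gave none either. With no filter on low counts 2 of the 10 passed in edgeR, where 249 of 26956 genes did. These were H19 (adjusted p = 0.000857) and Peg3 (adjusted p = 0.00911). At an unadjusted p under 0.05, 3 of 10 were lower and 0 higher, where 4.02% of all tested genes were lower and 2.74% higher, 6.76% together. The 3 were H19, Meg3 and Peg3. This count was 1 (Meg3) without eIF5A-KO replicate 2. It was 2 (H19 and Meg3) in limma-voom and in limma on FPKM, where the unadjusted p of Peg3 was between 0.0947 and 0.121. Without WT replicate 1 it was 4, with Ndn added in the higher direction, where 1530 of 15056 genes had such a p. With no filter on low counts it was 5, with Rian and, in the higher direction, Dlk1 added, where 1703 of 26956 genes did. Leaving out any other library gave 2. These were Meg3 with Rian without WT replicate 2 and with Peg3 without WT replicate 3. They were Meg3 with H19 without eIF5A-KO replicate 1 and with Mest without eIF5A-KO replicate 3. At a fold change over 2 with unadjusted p under 0.05, the criterion of the study's methods, 1 of 10 passed (H19), against 1.85% of all genes, 1.32% in the lower direction. With 1 library left out, H19 kept this call only without WT replicate 1 or without eIF5A-KO replicate 1. The groups did not overlap in CPM for 1 of 10 (Meg3), against 12.5% of all genes and 6.83% in the lower direction. The log2 fold change was below 0 for 8 of 10, where 51.7% of all genes were below 0, and its median over the 10 genes was -0.33 against -0.011 over all genes.

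**Figure D1:**
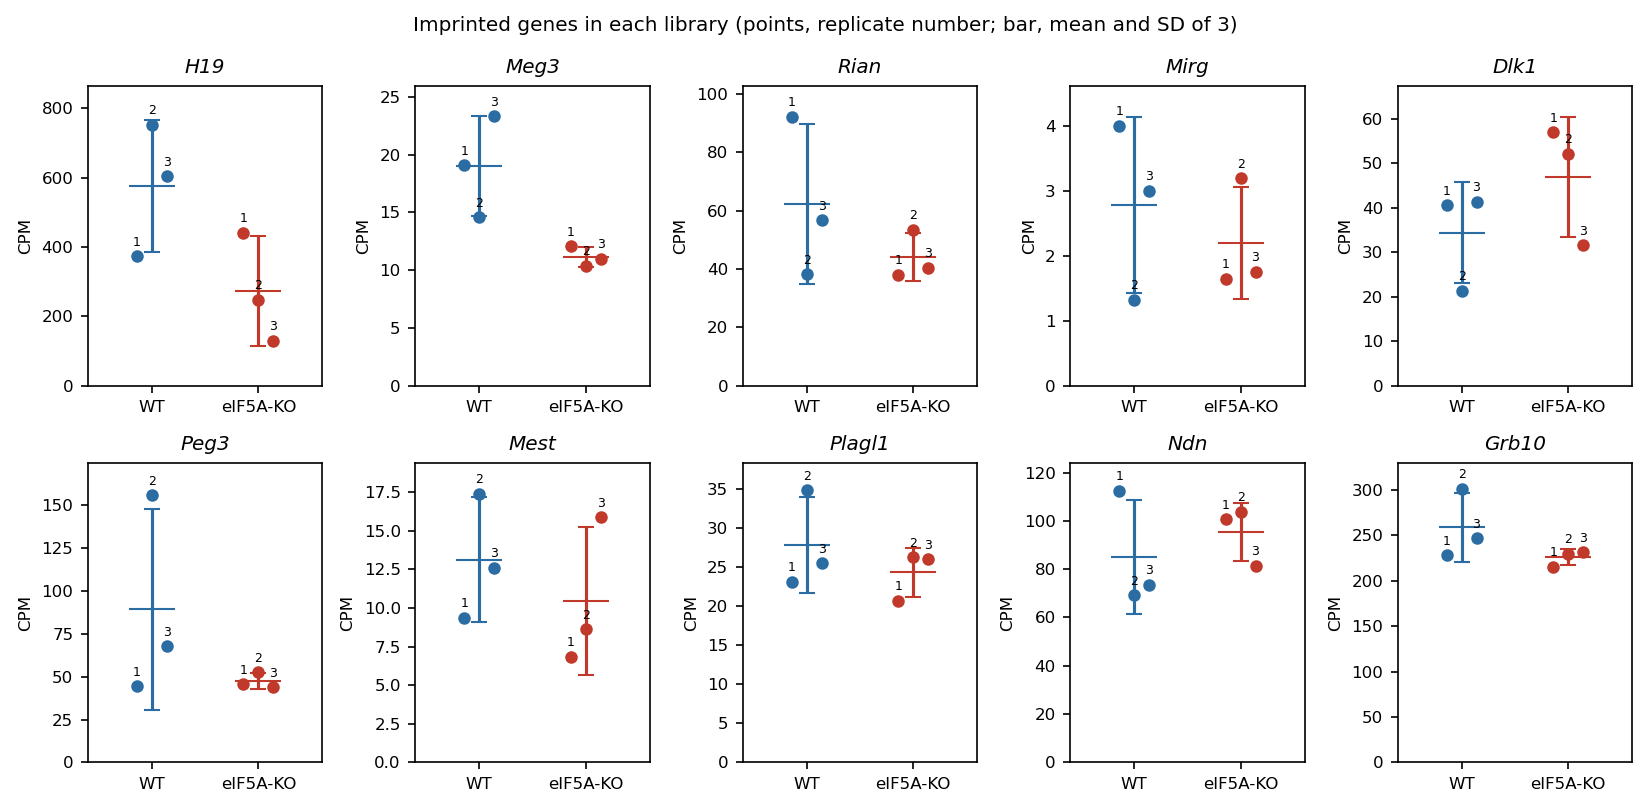
CPM of each gene in each library (points, numbered by replicate) with the mean and standard deviation of 3 libraries per group (bars), WT in blue and eIF5A-KO in red. The eIF5A-KO points of Meg3 all lie below the WT points, and the groups of the other 9 genes overlap.

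H19 is among the most abundant non-coding RNAs of embryonic muscle and had the highest FPKM of the 10 genes in every library here, although its CPM in eIF5A-KO replicate 3 was below that of Grb10. WT libraries held 374.3, 752.1 and 604.7 CPM and libraries labelled eIF5A-KO 441.9, 248.3 and 130.6 CPM. The groups overlapped, since eIF5A-KO replicate 1 was above WT replicate 1. Means were 577 ± 190.4 (SD, n = 3) and 273.6 ± 157.2 CPM (n = 3), and the log2 fold change was -1.08 (SE 0.41, 95% confidence interval -2.01 to -0.15), with edgeR unadjusted p = 0.0275 and adjusted p = 0.644. The summed myoblast markers, 643.6, 1584 and 1137.2 CPM in WT and 1147, 839.8 and 649.7 CPM in eIF5A-KO, differed among the same libraries, with 6 of 7 markers below 0 in fold change and a median of -0.36 over the list, and their part in the H19 value was not tested. Pax7, the satellite cell factor whose locus drives Cre, had the largest difference of the list, with 12.9, 51.7 and 25.2 CPM in WT and 13, 8.29 and 10.6 CPM in eIF5A-KO (log2 fold change -1.50, SE 0.43, edgeR unadjusted p = 0.0069, adjusted p = 0.484), and its groups overlapped. In bulk samples, fewer cells of a type and less RNA per cell cannot be told apart. The share of H19 in the counts of the 10 genes was 39.5%, 53.5% and 52.3% in WT and 47%, 31.5% and 21.2% in eIF5A-KO. Leaving out 1 library at a time moved the H19 value from -1.6 (without eIF5A-KO replicate 1) to -0.74 (without eIF5A-KO replicate 3), and the unadjusted p was under 0.05 in 2 of these 6 fits. The 2 fits were those without WT replicate 1 and without eIF5A-KO replicate 1. With no filter on low counts the adjusted p of H19 was 0.000857.

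Igf2, the paternally expressed growth factor that shares enhancers with H19, was scarcely counted: 4, 50 and 15 reads in WT and 4, 27 and 25 in eIF5A-KO. Its log2 fold change was -0.24 with a confidence interval of -2.01 to 1.53, which contains the H19 value of -1.08. Its counting error was 14.1% to 50%, and its WT libraries, at 0.259, 2.65 and 0.886 CPM, differed by more than that.

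Meg3 was the gene with the smallest unadjusted p. It had 19.1, 14.6 and 23.3 CPM in WT and 12.1, 10.4 and 11 CPM in eIF5A-KO, from 175 to 395 counts per library. Every library labelled eIF5A-KO was below every WT library. Means were 19 ± 4.37 and 11.1 ± 0.855 CPM (SD, n = 3 each), and the log2 fold change was -0.77 (SE 0.22, 95% confidence interval -1.26 to -0.28), edgeR unadjusted p = 0.00572 and adjusted p = 0.463, at rank 180 of all tested genes. Over 18 alternatives the Meg3 value lay between -0.93 and -0.33 with an unadjusted p between 0.00133 and 0.0358 and an adjusted p between 0.148 and 1.0. Meg3 overlaps 5 other annotated genes, 1 of them on the opposite strand, and the library kit does not mark strand, so reads of these cannot be told apart from its own.

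Rian and Mirg, the other maternally expressed RNAs of the domain, had estimates in the direction of Meg3 with wider intervals, which contain the Meg3 value; a difference from Meg3 was not tested. Rian carries a cluster of C/D small nucleolar RNAs and had 92.2, 38.2 and 56.7 CPM in WT and 38.1, 53.5 and 40.5 CPM in eIF5A-KO. Mirg, a host of miRNAs, had 4.01, 1.33 and 3.01 CPM and 1.65, 3.2 and 1.76 CPM. In both the groups overlapped, and WT replicate 2 was at or near the bottom of the 6 libraries. The log2 fold changes were -0.50 (SE 0.30, 95% confidence interval -1.18 to 0.18, edgeR adjusted p = 0.851) for Rian and -0.33 (SE 0.45, interval -1.34 to 0.69, adjusted p = 0.948) for Mirg, and without WT replicate 1 they were -0.10 and 0.035. Without WT replicate 2 they were -0.76 (unadjusted p = 0.0126 in edgeR) and -0.67, and without eIF5A-KO replicate 2 they were -0.66 and -0.69. Mirg rests on 25 to 62 counts per library, so its counting error alone was 12.7% to 20%.

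Dlk1, the paternally expressed gene of the same domain, had values in the opposite direction. It had 40.5, 21.4 and 41.3 CPM in WT and 57, 52.1 and 31.6 CPM in eIF5A-KO. The 2 highest values were in eIF5A-KO and the lowest in WT, but the groups overlapped. The means were 34.4 ± 11.3 and 46.9 ± 13.4 CPM and the log2 fold change was 0.45 (SE 0.30, 95% confidence interval -0.22 to 1.12, edgeR adjusted p = 0.876). The Dlk1 value was 0.20 without WT replicate 2 and 0.29 without eIF5A-KO replicate 1, and 0.67 (unadjusted p = 0.0533 in edgeR) without eIF5A-KO replicate 3. Dio3, the deiodinase gene at the far end of the domain, had a log2 fold change of 0.11 (interval -0.82 to 1.04), and Begain, a neighbour on the near side, -0.34 (interval -1.20 to 0.52). Rtl1, between Dlk1 and Mirg, was not tested, with 4, 15 and 9 counts in WT and 7, 24 and 2 in eIF5A-KO.

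**Figure D2:**
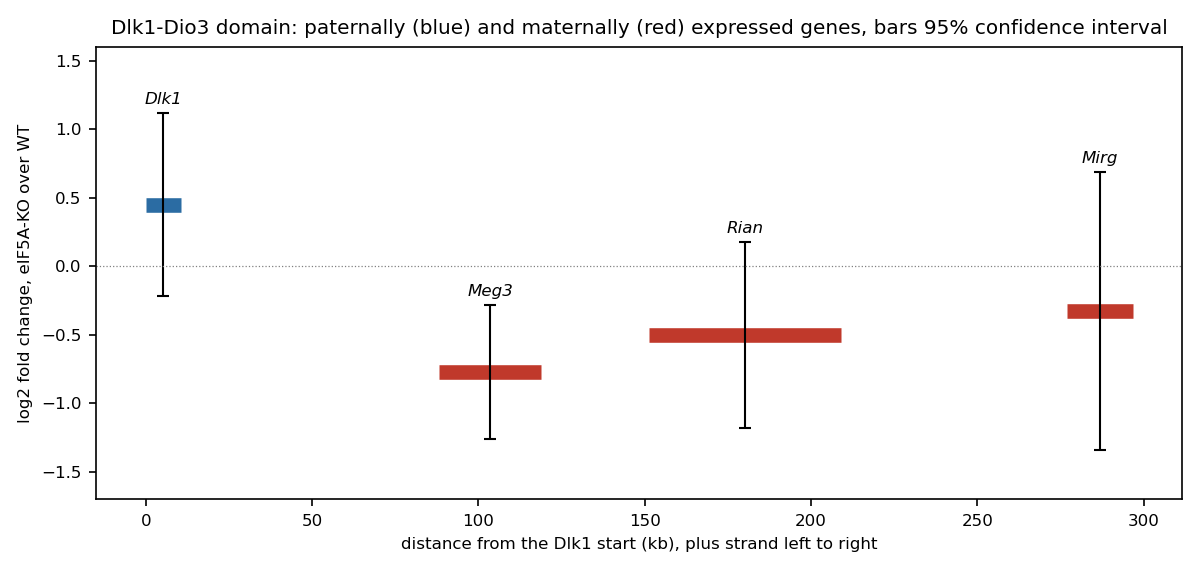
Log2 fold change of eIF5A-KO over WT for 4 genes of the Dlk1-Dio3 domain against distance from the Dlk1 start in kb, with the extent of each gene drawn as a bar (paternally expressed in blue, maternally expressed in red) and the 95% confidence interval as a line. The Meg3 interval, -1.26 to -0.28, lies below 0 and the intervals of Dlk1, Rian and Mirg include 0.

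Peg3, which encodes a zinc finger protein with many targets in growth and metabolism, had 44.6, 155.7 and 67.9 CPM in WT and 45.6, 52.7 and 44 CPM in eIF5A-KO. WT replicate 2 was far above every other library, and WT replicate 1 lay among the libraries labelled eIF5A-KO. Means were 89.4 ± 58.6 and 47.4 ± 4.62 CPM (SD, n = 3 each), and the log2 fold change was -0.91 (SE 0.39, 95% confidence interval -1.79 to -0.04, edgeR unadjusted p = 0.0422, adjusted p = 0.712). Without WT replicate 2 the value was -0.24 and without WT replicate 1 it was -1.23, and with no filter on low counts the adjusted p of Peg3 in edgeR was 0.00911. Pax7 (51.7 CPM, r = 0.914 with Peg3) and the summed myoblast markers (1584 CPM) were also highest in WT replicate 2. Their part in the Peg3 value was not tested. Zim1, a maternally expressed zinc finger gene of the Peg3 domain, had 3.49, 12.3 and 5.43 CPM in WT and 5.02, 3.49 and 2.78 CPM in eIF5A-KO, with a log2 fold change of -0.92 (interval -1.93 to 0.10). Its highest library was also WT replicate 2. Usp29, another gene of that domain, had a log2 fold change of -0.11 (interval -0.80 to 0.57).

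Mest, Plagl1, Ndn and Grb10 had overlapping groups and intervals that include 0, and all of their values depended on single libraries. Mest had 9.37, 17.4 and 12.6 CPM in WT and 6.85, 8.64 and 15.9 CPM in eIF5A-KO, with a log2 fold change of -0.33 (95% confidence interval -1.10 to 0.44, edgeR adjusted p = 0.931). It overlaps Copg2 on the opposite strand, whose log2 fold change was -0.37 (interval -0.78 to 0.05) with no overlap between groups. Plagl1, a zinc finger regulator of other imprinted genes, had 23.1, 34.8 and 25.5 CPM in WT and 20.7, 26.2 and 26 CPM in eIF5A-KO, with a log2 fold change of -0.19 (interval -0.66 to 0.27, adjusted p = 0.935). WT replicate 2 held the highest value of both genes, and without it the Plagl1 value was 0.00049. The Mest value was -0.069 without WT replicate 2 and -0.76 (unadjusted p = 0.0404 in edgeR) without eIF5A-KO replicate 3. Ndn had 112.4, 69.2 and 73.5 CPM in WT and 100.8, 103.7 and 81.4 CPM in eIF5A-KO, with a log2 fold change of 0.17 (interval -0.33 to 0.66, adjusted p = 0.947). Without WT replicate 1 the Ndn value was 0.43 (unadjusted p = 0.0297 in edgeR), and without WT replicate 2 it was 0.038. Grb10 had the narrowest spread, 228.4, 301.6 and 247.2 CPM in WT and 215.8, 230.1 and 231.7 CPM in eIF5A-KO, with a log2 fold change of -0.20 (interval -0.59 to 0.19, adjusted p = 0.914), or -0.073 without WT replicate 2. Of the Grb10 neighbours, Ddc had -0.39 (interval -1.31 to 0.54), while Cobl, an actin nucleator gene, had 4.72, 14.6 and 8.5 CPM in WT and 4.41, 3.26 and 3.12 CPM in eIF5A-KO. The Cobl groups did not overlap, and its log2 fold change was -1.37 (SE 0.39, interval -2.26 to -0.49, edgeR unadjusted p = 0.00651, adjusted p = 0.478). The Ndn neighbour Mkrn3 had -0.19 (interval -0.94 to 0.56), and Magel2 was not tested, with 2 counts in WT replicate 1 and 0 in the other 5 libraries, where a count of 0 allows up to 3.

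**Figure D3:**
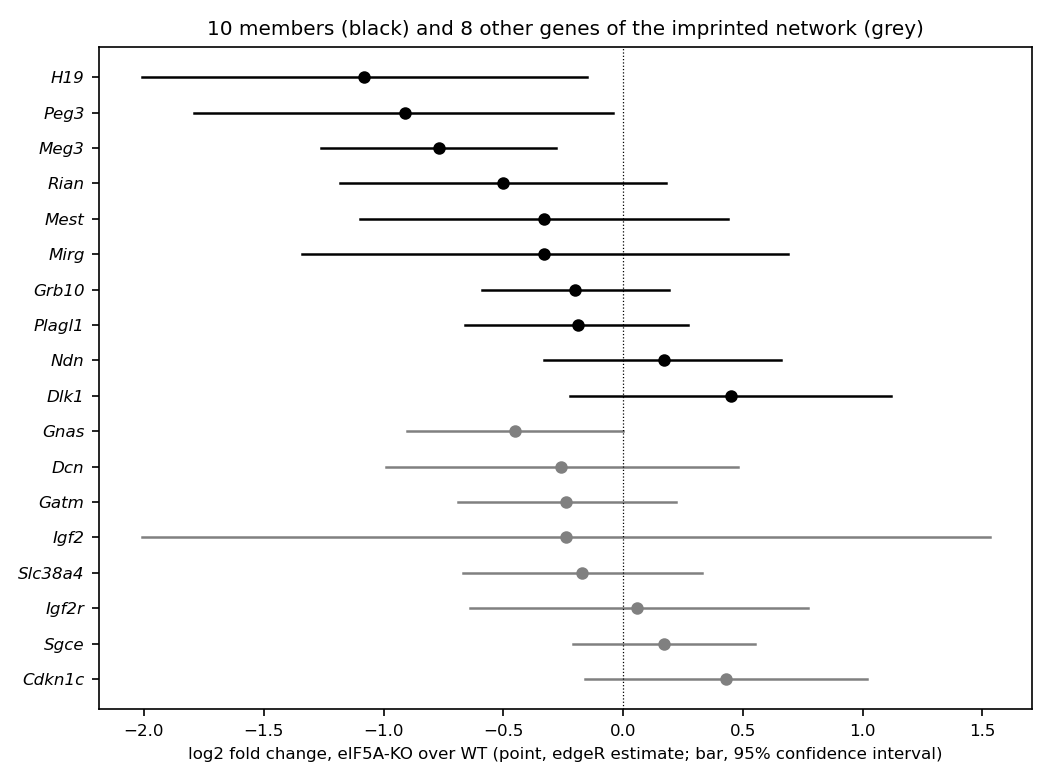
Log2 fold change of eIF5A-KO over WT (edgeR estimate, points) with its 95% confidence interval (bars) for the 10 genes in black and 8 other genes of the imprinted network in grey. The intervals of H19, Peg3 and Meg3 lie below 0, that of Gnas ends just below it, and all others include it.

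Grouped by the parental copy that is known to be expressed, the 5 maternally expressed genes had log2 fold changes from -1.08 to -0.20 with a median of -0.50. The 5 paternally expressed genes ran from -0.91 to 0.45 with a median of -0.19. These counts describe the 10 genes and no test was made between the 2 kinds.

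**Figure D4:**
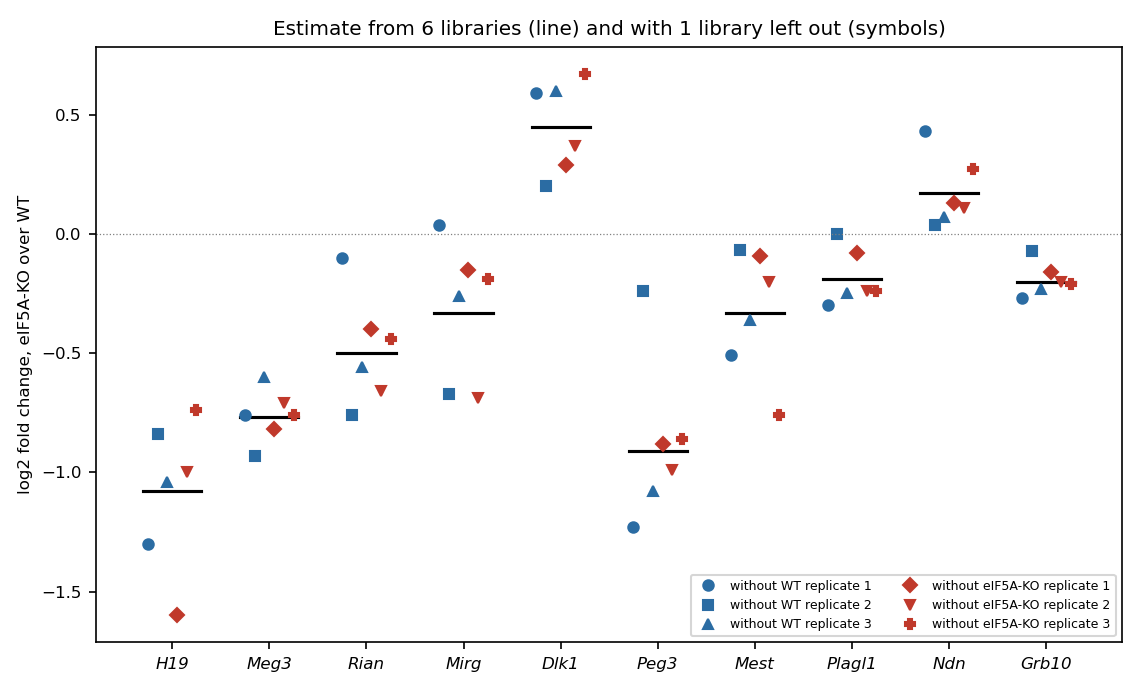
Log2 fold change of each gene from all 6 libraries (black line) and with 1 library left out (symbols, blue for WT and red for eIF5A-KO). Meg3 stays between -0.93 and -0.60 in all 6 fits, while Peg3 runs from -1.23 to -0.24 and H19 from -1.60 to -0.74.

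A further 8 genes of the imprinted network were tested, and 0 passed the adjusted threshold in edgeR. Of these 8, 5 were below 0 and 3 above, with a median of -0.20, and 1 had an unadjusted p under 0.05. That gene, Gnas, encodes the stimulatory G protein subunit and had 89.1, 102.1 and 69.5 CPM in WT and 65.6, 71.8 and 53.2 CPM in eIF5A-KO, with a log2 fold change of -0.45 (SE 0.20, edgeR unadjusted p = 0.0496, adjusted p = 0.738). Gnas lost this call with DESeq2 size factors (unadjusted p = 0.0506 in edgeR), with scaling without the most abundant genes (0.0524), with the replicate block (0.0543), in limma-voom (0.0534), in limma on FPKM (0.0669 and 0.0713) and with any library but WT replicate 3 left out, and kept it in DESeq2 (0.0493). Cdkn1c, a cyclin-dependent kinase inhibitor, had a log2 fold change of 0.43 (95% confidence interval -0.16 to 1.02), which was 0.14 without eIF5A-KO replicate 1 and 0.67 (unadjusted p = 0.0166 in edgeR) without eIF5A-KO replicate 3. The receptor Igf2r had a log2 fold change of 0.06 (-0.64 to 0.77), or 0.53 (unadjusted p = 0.0374 in edgeR) without WT replicate 2. The remaining log2 fold changes were -0.26 for Dcn (-0.99 to 0.48), -0.24 for Gatm (-0.69 to 0.22), 0.17 for Sgce (-0.21 to 0.55) and -0.17 for Slc38a4 (-0.67 to 0.33). Of 10 genes beside the 10 in the same imprinted regions, 8 were tested, 7 below 0 and 1 above, with 0 past the adjusted threshold and 1 (Cobl) at an unadjusted p under 0.05.

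Of 30 other imprinted genes, 19 were tested, with 11 below 0 and 8 above and a median of -0.09. None passed the adjusted threshold in the main edgeR fit, but 1 did with no filter on low counts and 1 without WT replicate 1. Over all genes, 249 of 26956 and 56 of 15056 passed in those fits. At an unadjusted p under 0.05 there were 2. The latter count was 4 without WT replicate 1, 3 without eIF5A-KO replicate 2 or without a filter, and 1 without WT replicate 3, without eIF5A-KO replicate 3, with the replicate block or in limma on log2(FPKM + 1). Zdbf2, a paternally expressed gene, had 2.2, 9.12 and 4.9 CPM in WT and 1.71, 2.01 and 2.04 CPM in eIF5A-KO, without overlap, and a log2 fold change of -1.49 (SE 0.47, edgeR unadjusted p = 0.0104, adjusted p = 0.504). Kcnq1, a potassium channel gene, had 1.1, 1.27 and 0.768 CPM and 1.9, 1.54 and 2.78 CPM, without overlap and with a log2 fold change of 0.98 (SE 0.38, edgeR unadjusted p = 0.0291, adjusted p = 0.644).

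Among genes that keep imprints, 12 of 14 were tested, with 10 below 0 and a median of -0.16. Uhrf1, which guides maintenance methylation to replicated DNA, had 122.4, 124.5 and 128.9 CPM in WT and 76.5, 87.2 and 64.7 CPM in eIF5A-KO. The groups did not overlap, and the log2 fold change was -0.72 (SE 0.17, edgeR unadjusted p = 0.00197, adjusted p = 0.379). None of the 12 passed the adjusted threshold, and Uhrf1 was the only one with an unadjusted p under 0.05.

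In the IGF and insulin list, 15 of 16 genes were tested, of which 12 were above 0 and 3 below, with a median of 0.18, and 0 passed the adjusted threshold in edgeR. The binding protein Igfbp7 had 216.4, 267.4 and 298.1 CPM in WT and 600.6, 371.2 and 434.7 CPM in eIF5A-KO, and Igfbp5 had 64.5, 204.5 and 126.5 CPM and 244.5, 235 and 309.6 CPM. In both the groups did not overlap, with log2 fold changes of 0.85 (edgeR unadjusted p = 0.00422, adjusted p = 0.400) and 1.00 (unadjusted p = 0.0196, adjusted p = 0.576). Both proteins are also made by mural and endothelial cells, whose markers are given above, and their part in these values was not tested. In the Notch list, which Dlk1 is related to through its EGF repeats, 14 of 14 genes were tested with a median of 0.11 and 0 passed the adjusted threshold. Hes1, a Notch target, had 31, 52.3 and 50 CPM in WT and 177.2, 86.1 and 69 CPM in eIF5A-KO (log2 fold change 1.32, edgeR unadjusted p = 0.00449, adjusted p = 0.407), and Hes6, which opposes Hes1 and is made in myoblasts, had 41.4, 57.4 and 44.7 CPM and 32.7, 20.7 and 15.5 CPM (log2 fold change -1.06, unadjusted p = 0.00367, adjusted p = 0.398). Hey1, another target, had a log2 fold change of 0.70 (edgeR unadjusted p = 0.0272, adjusted p = 0.642).

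The 10 genes also varied among libraries of 1 group. Over 45 pairs, correlations of log2 CPM across the 6 libraries were tested by exact permutation, two-sided, and none passed adjustment (the smallest adjusted p was 0.188). These r span both groups and so include the difference between them. On deviations from the group means, r was 0.942 for Rian and Mirg, -0.904 for Dlk1 and Mest, and for Meg3 0.358 with Rian and 0.479 with Mirg. Some other pairs changed sign, such as Meg3 and Dlk1, at 0.719 on deviations against -0.13. Rian and Mirg varied together, with Pearson r = 0.917 (exact p = 0.00694) and Spearman rho = 0.886 (exact p = 0.0333), and r was 0.974 without the 2 libraries farthest from the median. The 2 genes are annotated on 1 strand of 1 domain. For Meg3, r was 0.566 with Rian (exact p = 0.251) and 0.426 with Mirg (exact p = 0.379). Dlk1 and Mest ran in opposite directions, with r = -0.917 (exact p = 0.00833), rho = -0.943 (exact p = 0.0167) and r = -0.871 without the 2 farthest libraries. Dlk1 was lowest and Mest highest in WT replicate 2. Ndn was highest and Mest lowest in WT replicate 1, eIF5A-KO replicate 1 and eIF5A-KO replicate 2, which were also the libraries with the largest share of counts in the 10 most abundant genes (8.23%, 5.68% and 6.57%, against 4.83% to 4.97%), and the part of this share was not tested.

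**Figure D5:**
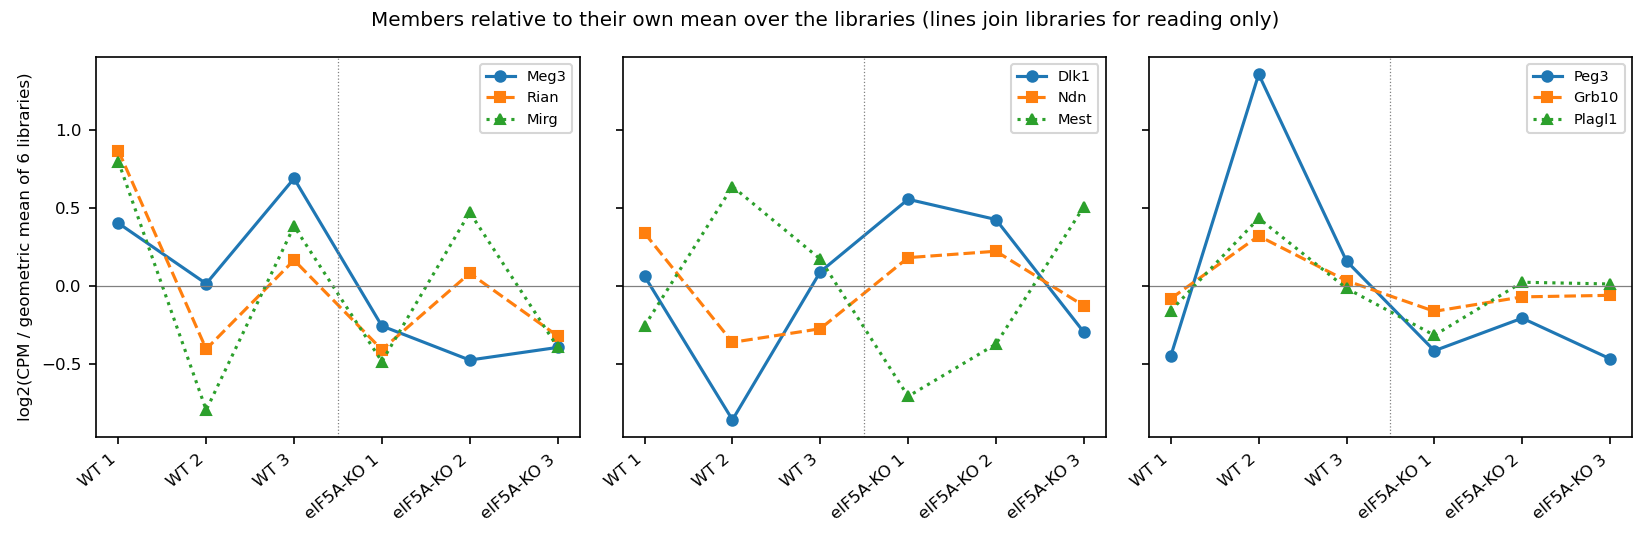
Log2 of CPM over the geometric mean of 6 libraries for Meg3, Rian and Mirg (left), Dlk1, Ndn and Mest (middle) and Peg3, Grb10 and Plagl1 (right), in each library, with lines for reading only. Rian and Mirg move together, Dlk1 and Mest move oppositely, and WT replicate 2 stands highest for Peg3, Grb10 and Plagl1.

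Peg3 and Grb10 had r = 0.973 (exact p = 0.0222) but rho = 0.6 (exact p = 0.242), and r was 0.157 without the 2 libraries farthest from the median of Peg3, so that the relation rests on those, although r was at least 0.782 with any single library left out. For Peg3 and Plagl1, r went from 0.875 to 0.391 without the same 2 libraries and was as low as 0.411 with 1 left out. For Plagl1 and Grb10, r went from 0.937 to 0.28 without the 2 libraries farthest from the median of Plagl1, and was at least 0.75 with 1 left out. Without WT replicate 2 the number of pairs with r over 0.8 was 1, where it was 5 with all libraries.

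Each of the 10 genes was also set beside all 14678 other tested genes by Pearson r of log2 CPM over 6 libraries, as a description. The genes most like H19 were Nup210l (r = 0.9957), Tmem144 (0.9912) and Mymk (0.9794), the last being the myomaker gene of myoblast fusion, and 32 genes had r over 0.95. Of the listed genes, Hes6 (r = 0.959, rank 25) and Myod1 (r = 0.947, rank 33) were nearest to H19. Most like Meg3 were Tmed10-ps (0.9932), 4933421O10Rik (0.9826) and Ccl25 (0.9748). Rian stood near to Exosc2 and Wdr55, Mirg to Gm13212, Gm6136 and Gm7413, Dlk1 to Mrpl37, Cisd3 and Ndufa10, and Peg3 to Lpgat1, E2f7 and Pstpip2. Grb10 was at rank 20 and Dnmt1, the maintenance methyltransferase, at rank 24 for Peg3. Mest stood nearest to Polr2b, Larp4 and Atad2b, Plagl1 to Klhl18, Alms1 and Cep192, Ndn to Psmd8, Gla and Metrnl, and Grb10 to Rab11fip2, Tecpr2 and Gpr155. With 6 libraries and this many genes, high values arise readily, and no p is given.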

How the data were processed

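The authors mapped the reads of NEBNext Ultra libraries to mm10 with HISAT and deposited raw read counts per gene. A second deposited table holds FPKM, which equalled the count over gene length with 1 denominator per library. The HISAT version, annotation, counting rules and strand setting were not given in the sources used here. Of 54532 identifiers, 54409 were in GENCODE M21 of GRCm38. From the counts, edgeR 4.0.16 in R 4.3.3 was run with filterByExpr defaults, TMM factors, the quasi-likelihood F test and Benjamini-Hochberg adjustment over 14679 tested genes, without covariates, for 3 libraries labelled eIF5A-KO against 3 labelled WT. The replicates had a biological coefficient of variation of 0.239. The prior count was 0.125 for fold changes and 2 for log2 CPM, which correlations used. Fold changes were first fitted with a prior count of 2, and the edgeR default replaced it after the number of genes past the fold criterion had been seen. SE was taken as the fold change over the square root of the F statistic. CPM uses the TMM factors, and SD is given unless SE is named. Counting errors cover counting alone. Reads carry no molecular identifiers.

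The 10 genes, the gene lists and the tests were chosen with earlier results of these data known. The genes named are the 10, the other tested genes of the imprinted network and of their loci, those of the other lists with unadjusted p under 0.05 (at most 4 per list), Eif5a, and for each of the 10 the 3 genes most like it, of which 1 is not reported here. Cell type markers were read as summed CPM. On simulated counts of 14679 genes with 200 changed, edgeR called 100 of 114 changed by a log2 fold change of 2 and 28 of 86 changed by 1, with 13 unchanged genes called. Alternatives were other scalings (DESeq2 size factors, upper quartile, library size alone, or scaling without mitochondrial, the 10 most abundant and the 10 genes), dropping the filter or asking for 10 counts in each library, other tools (DESeq2 1.42.0, limma-voom from limma 3.58.1), limma on log2(FPKM + 1) or log2(FPKM + 0.1), a replicate block and each library left out. Correlations used scipy 1.17.1.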

Additional observations from a re-analysis of the deposited data

How the results depend on the processing

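The count of genes with an adjusted p under 0.05 was 3 in edgeR and depended on the processing. It was 0 with DESeq2 size factors, with library size alone, with at least 10 counts in every library, in limma-voom and in limma on log2(FPKM + 1) and log2(FPKM + 0.1), where 992, 966, 907, 961, 980 and 980 genes had an unadjusted p under 0.05. It was 249 of 26956 genes without a filter, 92 in DESeq2 and between 0 and 56 with 1 library left out, the 56 being without WT replicate 1. Without a filter, 2 of the 10 genes passed, H19 (adjusted p = 0.000857) and Peg3 (adjusted p = 0.00911), and 1 of the other imprinted genes. The number of the 10 genes past the fold criterion was 1, and 0 to 2 with 1 library left out. It was 2 (H19 and Peg3) without WT replicate 1, where 481 of all genes passed. It was 0 without WT replicate 2, eIF5A-KO replicate 2 or eIF5A-KO replicate 3. Without WT replicate 3 it was 1, with Peg3 in place of H19. The other imprinted genes gave 0 to 1 adjusted calls with 1 library left out (1 without WT replicate 1). With the prior count of 2 that was fitted first, 248 genes passed the fold criterion in place of 272, and still 1 of the 10, with the same p-values. Over all alternatives the number of genes past this criterion ran from 59, in limma on log2(FPKM + 1), to 692 without a filter. Pairs with r over 0.8 numbered 1 to 7 with 1 library left out. The causes were not tested.

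With 1 library left out, the direction turned for Mirg (-0.69 to 0.035, above 0 without WT replicate 1), Plagl1 (-0.30 to 0.00049, above 0 without WT replicate 2), Igf2 (from -0.69, with 0.91 without WT replicate 2 and 0.24 without eIF5A-KO replicate 1), Igf2r (up to 0.53, with -0.20 without WT replicate 1, -0.023 without WT replicate 3, -0.017 without eIF5A-KO replicate 3), Dcn (-0.50 to 0.20) and Slc38a4 (-0.27 to 0.077), above 0 for the last 2 without WT replicate 1. The median over all genes lay between -0.042 and 0.0094 under every setting. No pairing by replicate number was seen: deviations of same-numbered libraries correlated at 0.084, -0.16 and 0.105, and not every sample correlated best with its own number. With 3 libraries per group this check could not exclude a pairing. With the replicate block, 24 genes and 0 of the 10 passed the adjusted threshold. Counting error was 14.1% to 50% for Igf2 and 12.7% to 20% for Mirg, and both differed by more than this among the WT libraries.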

Other observations

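Ratios between genes of 1 domain, chosen after the values were seen and given without a test, are read within a library on FPKM. The ratio of Dlk1 to Meg3 was 6.76, 4.69 and 5.67 in WT and 15.1, 16.1 and 9.2 in eIF5A-KO, without overlap between the groups. The ratio of Rian to Meg3 was 4.78, 2.6 and 2.41 in WT and 3.14, 5.12 and 3.66 in eIF5A-KO, with overlap. That of Mirg to Meg3 was 0.52, 0.226 and 0.32 in WT and 0.34, 0.765 and 0.396 in eIF5A-KO, also with overlap. The ratio of Peg3 to Zim1 was 7.75, 7.68 and 7.58 in the WT libraries, in which Peg3 itself differed from 44.6 to 155.7 CPM, and 5.52, 9.15 and 9.61 in eIF5A-KO. Zim1 had 54, 232 and 92 counts in WT. Its counting error over the 6 libraries was 6.57% to 14.3%, which is more than the WT ratios differ.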
